A study of Drosophila melanogaster with 10 samples.

Results

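The contact maps described here are those of S2 cells treated with double-stranded RNA against Su(var)3-9, set against those of cells treated with double-stranded RNA against GFP, a gene these cells do not carry. They were chosen by their labels and make up 4 of the 9 libraries for which score maps were used, 2 of Su(var)3-9 RNAi and 2 of the GFP control, which is called mock RNAi. S2 is an embryonic Drosophila melanogaster cell line, and both groups were transfected with the RNA and harvested after 3 days of incubation. The other libraries, 2 of HP1a RNAi and 3 of untreated WT cells, are given only beside these. The depletion is a knockdown in a mixed population of 1 cell line, not a mutant. The maps record DNA contacts and hold no check of the depletion, for which the study reports a lower protein level by immunoblot. Nothing in the labels says that replicates came from separate cultures, and the spread between them may be technical.

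Su(var)3-9 is a histone methyltransferase that places methyl groups on lysine 9 of histone H3. HP1a binds this mark, and both proteins are needed for the compact chromatin around the centromeres, called pericentromeric heterochromatin. That chromatin is not empty of genes: some, such as light (lt), are expressed there and are known to lose expression when they are moved away from it. The maps ask how contacts inside this chromatin differ when the enzyme is depleted.

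Contacts were measured by 5C, in which a forward and a reverse primer are joined only where both anneal across a junction of 2 EcoRI fragments. The genomic parts of the first forward and the first reverse primer designed for chr2L show how a junction is read. The capitals mark the 3 bases of the cut EcoRI site that meet at the ligation point.
Forward primer, chr2L: ttcaattactgcaaaatgtcctaaaatGAA
Reverse primer, chr2L: TTCaatacatgcaaaaaataagaaaaaact
All 283 forward primers counted here end in these 3 bases and all 275 reverse primers counted start with theirs. Each ligated product thus carries 1 restored site and reports 1 contact. The study's text gives a larger number of primers designed. The primers could not be placed on bins here.

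The authors deposited, for each pair of bins on the same chromosome arm, a log2 ratio of observed contacts to those expected for the distance between the bins, so that the usual decline of contacts with distance is already divided out. A score of 1 thus stands for a contact seen at the doubled rate for its distance. The study's methods also enter a library of non-crosslinked DNA as a control in this step. They describe positive scores as enriched over that control, and how it enters the deposited score could not be checked here. Bins were 10 kb, or 5 kb on chrX, in dm3 coordinates, and covered chr2L:21906057-22967798, chr2R:19746-1385689, chr3R:6153-428656, chrX:21659812-22397716 and chr3L:22866370-24543557. Scores equal to 0 were treated as missing, which removed between 5.65% and 19.0% of the pairs of an arm on the autosomes and between 27.1% and 27.3% on chrX, apart from chr3L in the 2nd Su(var)3-9 RNAi library, where 90.5% were 0. chr3L is therefore described last and enters no other value. On the other 4 arms, 22332 of 26768 pairs had a score in all 4 libraries, with 14862 distinct sets of values, because the authors' median smoothing gave neighbouring bins the same scores. The scores are not counts, so the depth behind them is unknown and no counting interval can be given. The study's sequencing statistics list fewer reads with the EcoRI site for both Su(var)3-9 RNAi libraries than for both mock RNAi libraries, and effects of depth and of depletion cannot be told apart.

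The 2 Su(var)3-9 RNAi libraries did not shift together when whole arms were compared. The median score of chr2L was -0.49 and -2.47 in the Su(var)3-9 RNAi libraries, against -0.90 and -0.60 in the mock RNAi libraries. One depleted library thus lay above both controls and the other far below them. On chrX the order of the depleted libraries was turned round, with -1.34 and -0.62 in Su(var)3-9 RNAi and -0.75 and -0.84 in mock RNAi. On chr2R the medians were -1.54 and -0.97 in Su(var)3-9 RNAi and -0.99 and -0.89 in mock RNAi, so the groups overlapped on these 3 arms. chr3R was the exception, with -1.50 and -0.87 in Su(var)3-9 RNAi, both below the -0.65 and -0.65 of mock RNAi.

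**Figure D1:**
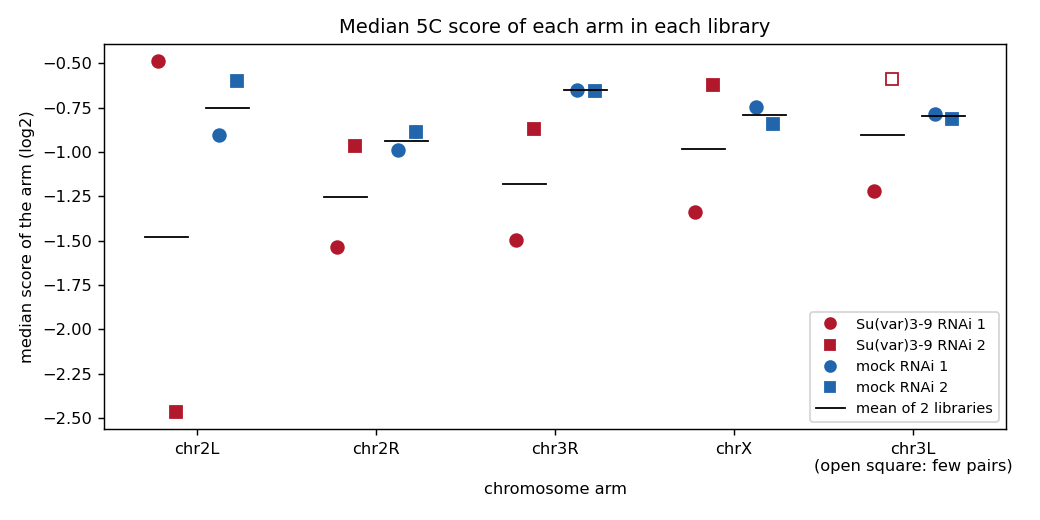
Median deposited score (log2, vertical axis) of each chromosome arm (horizontal axis) in the Su(var)3-9 RNAi libraries (red, left) and the mock RNAi libraries (blue, right), with the mean of each pair as a bar. On chr2L the Su(var)3-9 RNAi points, at -0.49 and -2.47, lie on either side of the mock RNAi points, at -0.90 and -0.60. The open square on chr3L rests on few pairs.

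Averaged over the 4 arms, the medians came to -1.21 and -1.23 in the Su(var)3-9 RNAi libraries, against -0.82 and -0.75 in the mock RNAi libraries, a difference of -0.44. The closeness of the depleted values hides opposite shifts on chr2L and on the other arms. Both lay below both controls (two-sided exact permutation p = 0.333). That is the smallest p that 2 libraries against 2 can give, so no such comparison here could pass 0.05. The 3 WT libraries had -0.49, -0.31 and -0.64, above both RNAi groups, and the difference from mock RNAi and WT together was -0.62 (exact permutation p = 0.0952, the smallest that 2 against 5 can give). Without chr2L it was -0.34 against mock RNAi alone.

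Positive scores, which the study takes as valid interactions, made up 7.19% and 6.58% of pairs in the Su(var)3-9 RNAi libraries as a mean over the 4 arms, and 3.44% and 5.65% in the mock RNAi libraries. The arms did not share this order. On chr2R both depleted libraries, at 2.18% and 6.72%, lay above both mock RNAi libraries, at 0.571% and 1.54%, while on chr3R they lay below, with 0.265% and 0.958% in Su(var)3-9 RNAi and 2.60% and 6.97% in mock RNAi. The depleted libraries were far apart on chr2L, at 20.9% and 0.0377%, and on chrX, at 5.46% and 18.6%. The WT libraries had 7.45%, 19.96% and 7.90% over the 4 arms, so the sign turned to -1.996 percentage points against mock RNAi and WT together.

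Because of these shifts, the median of each arm in each library was subtracted before the maps were compared further, and these scores are called centred. Although scores are relative to the expectation at each distance, near pairs had higher centred scores than far pairs in mock RNAi, and in Su(var)3-9 RNAi this gap was narrower on chr2L and chr2R. On chr2L, pairs under 100 kb apart had a median centred score of 0.02 and 0.12 in the Su(var)3-9 RNAi libraries, against 0.28 and 0.38 in the mock RNAi libraries. On chr2R it was 0.13 and 0.09 in Su(var)3-9 RNAi, against 0.22 and 0.31 in mock RNAi. Both depleted libraries thus had lower near scores, relative to the rest of their arm, than both controls. The same order held on chr3R, with -0.02 and 0.02 in Su(var)3-9 RNAi and 0.16 and 0.27 in mock RNAi, and on chrX, with 0.16 and 0.07 in Su(var)3-9 RNAi and 0.24 and 0.21 in mock RNAi. On chrX the WT libraries reached down to 0.07, so there the depleted values lay inside the range of all 5 controls.

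Pairs over 400 kb apart gave the opposite order on 2 of the 3 arms that are long enough. On chr2L their median centred score was 0.01 and -0.06 in Su(var)3-9 RNAi, against -0.13 and -0.13 in mock RNAi. On chr2R it was -0.02 and 0.07 in Su(var)3-9 RNAi, against -0.06 and -0.11 in mock RNAi. On chrX the depleted libraries disagreed, at -0.17 and 0.04, and enclosed the mock RNAi values of -0.10 and -0.06. The middle class, from 100 to 400 kb, had no common direction over the arms. It was lower in both depleted libraries on chr2L, with -0.07 and 0.01 in Su(var)3-9 RNAi against 0.02 and 0.02 in mock RNAi, and on chr2R, with -0.03 and -0.08 against 0.05 and 0.08. On chrX it was higher, with -0.03 and -0.02 in Su(var)3-9 RNAi and -0.09 and -0.06 in mock RNAi. On chr3R, where no pair over 400 kb had a score, it was higher too, at 0.00 and -0.02 in Su(var)3-9 RNAi and -0.11 and -0.10 in mock RNAi.

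The far class minus the near class sums this up in 1 value per library that a shift of a whole arm cannot change. Over chr2L, chr2R and chrX it was -0.16 and -0.07 in the Su(var)3-9 RNAi libraries, against -0.35 and -0.40 in the mock RNAi libraries, a difference of 0.25 (exact permutation p = 0.333). The WT libraries had -0.32, -0.33 and -0.34, close to mock RNAi, and the HP1a RNAi libraries -0.32 and -0.17. The difference was 0.36 on chr2L and 0.27 on chr2R, with both depleted libraries above all 5 controls on each. On chrX it was 0.13, with -0.33 and -0.03 in Su(var)3-9 RNAi and -0.35 and -0.27 in mock RNAi, and without the 2nd depleted library it was -0.024.

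**Figure D2:**
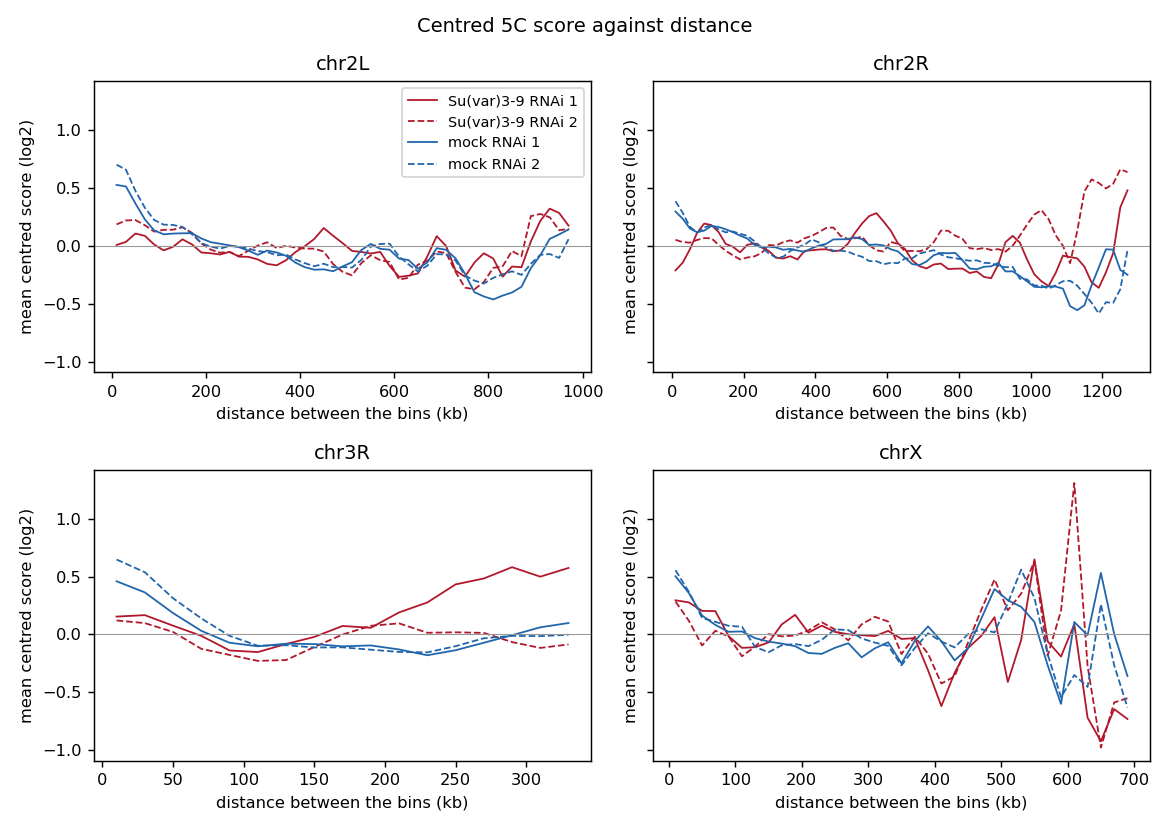
Mean centred score (log2, vertical axis) against the distance between bins (kb, horizontal axis, in steps of 20 kb) on 4 arms, for the Su(var)3-9 RNAi libraries (red) and the mock RNAi libraries (blue). At the shortest distances on chr2L the Su(var)3-9 RNAi lines start at 0.01 and 0.18 and the mock RNAi lines at 0.53 and 0.70. The right ends of the curves rest on few pairs.

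The scores of an arm were more spread out in Su(var)3-9 RNAi. On chr2L their SD was 0.77 and 0.81 in the Su(var)3-9 RNAi libraries, against 0.42 and 0.44 in the mock RNAi libraries. On chr2R it was 0.76 and 0.66 in Su(var)3-9 RNAi, against 0.42 and 0.46 in mock RNAi. On chrX it was 0.86 and 0.80 in Su(var)3-9 RNAi, against 0.57 and 0.53 in mock RNAi. The gap was narrower on chr3R, with 0.54 and 0.39 in Su(var)3-9 RNAi and 0.31 and 0.36 in mock RNAi. On each of these 4 arms both depleted libraries exceeded both mock RNAi and all 3 WT libraries. The HP1a RNAi libraries had 0.63 and 0.62 on chr2L, and their lower value on chr3R, 0.25, was below both mock RNAi libraries. Fewer reads can also widen the spread of scores, and the part of depth was not tested.

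Much of the added spread followed single bins, seen as rows and columns of one colour across the maps. When each score was fitted as the sum of 1 effect for each of its bins, the effects took up 60.1% and 69.1% of the variance on chr2L in the Su(var)3-9 RNAi libraries, against 23.7% and 27.0% in the mock RNAi libraries. On chr2R they took up 51.8% and 56.1% in Su(var)3-9 RNAi and 39.98% and 44.2% in mock RNAi, and on chr3R 76.8% and 50.4% against 38.6% and 37.0%. On chrX the shares were 35.9% and 38.1% in Su(var)3-9 RNAi and 28.9% and 32.6% in mock RNAi, inside the WT range of 30.4% to 44.2%.

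**Figure D3:**
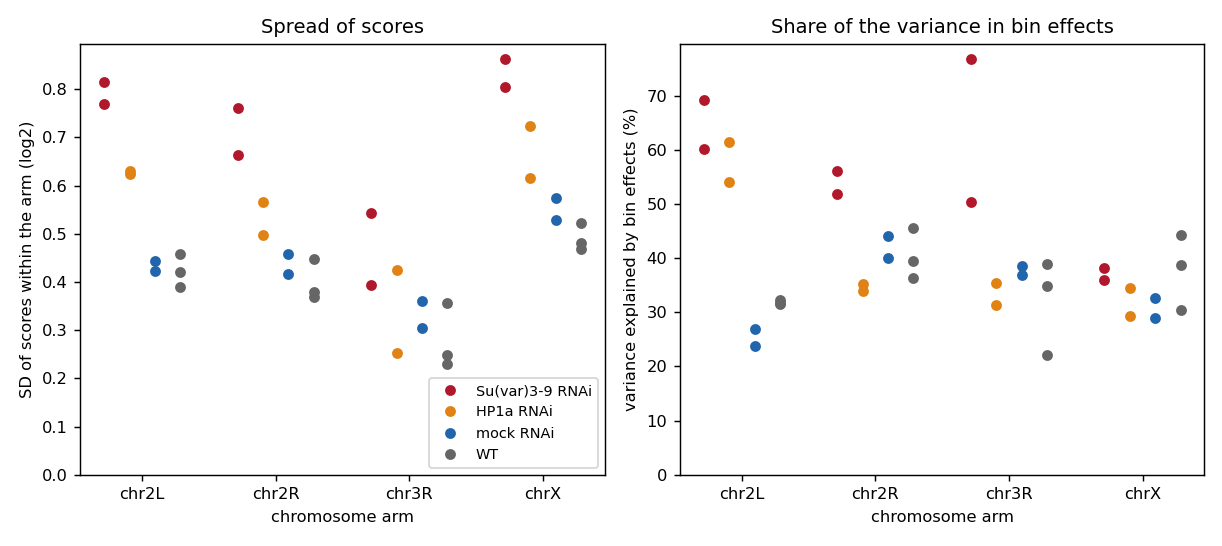
Left, SD of the deposited scores within an arm (log2); right, percent of their variance explained by additive bin effects; each point is 1 library, grouped by chromosome arm (horizontal axis), in the order Su(var)3-9 RNAi, HP1a RNAi, mock RNAi and WT. The Su(var)3-9 RNAi points are the highest in the left panel on chr2L, chr2R and chrX, and in the right panel they stand apart from mock RNAi most on chr2L.

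**Figure D4:**
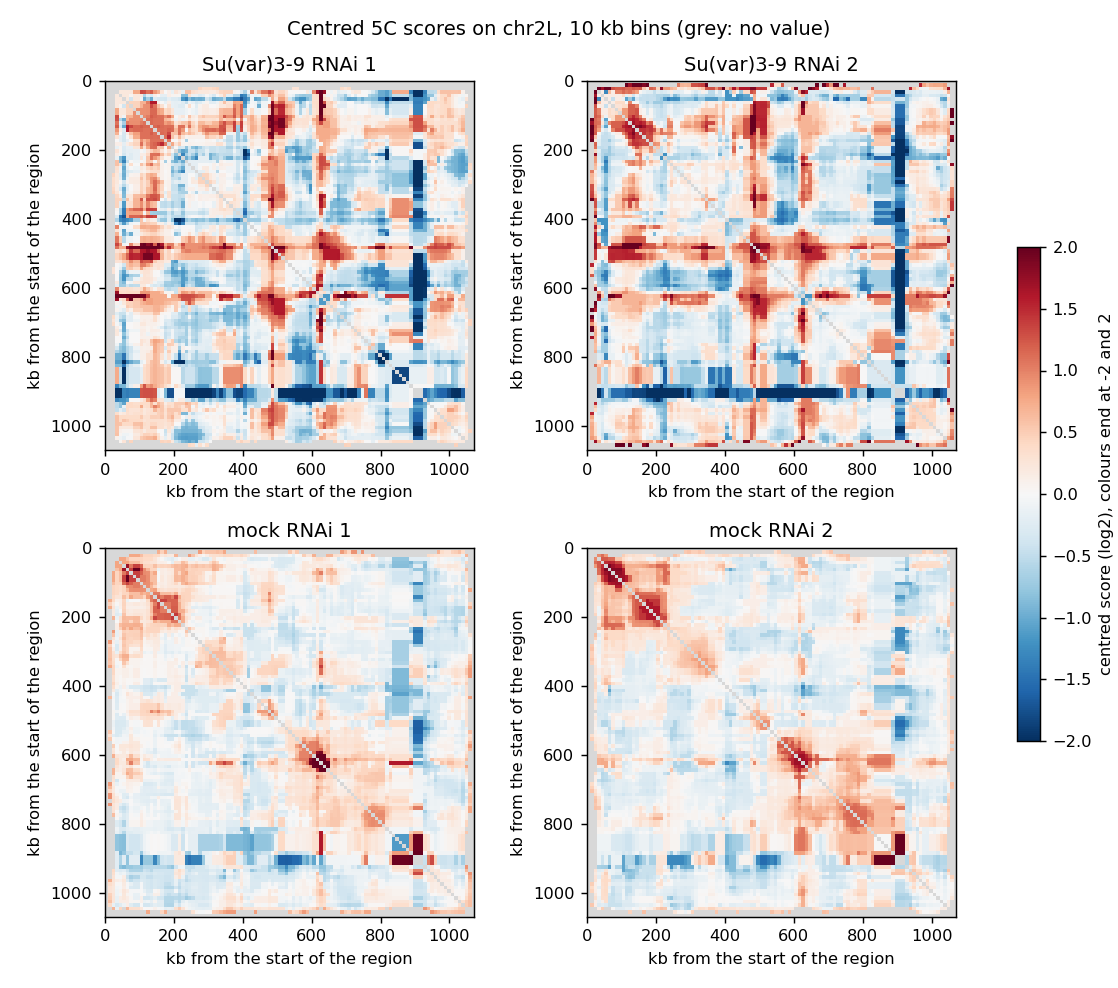
Centred scores of chr2L in each library, with both axes in kb from the start of the region; red is above and blue below the median of the arm. Stripes that run the whole width, such as the blue one near 900 kb and the red one near 480 kb, are shared by both Su(var)3-9 RNAi maps (top), while the mock RNAi maps (bottom) show squares along the diagonal.

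The depleted replicates shared these bin effects. Across the bins of an arm, their correlation between the Su(var)3-9 RNAi libraries was 0.951 on chr2L (104 bins), 0.916 on chr2R (134 bins), 0.705 on chr3R (40 bins) and 0.759 on chrX (128 bins). Between a depleted and a mock RNAi library it ran from -0.205 to 0.785, and within mock RNAi from 0.861 to 0.930. Between a Su(var)3-9 RNAi and a WT library it ran from -0.037 to 0.842, and between HP1a RNAi and mock RNAi from 0.145 to 0.603. On chr3R the highest values with mock RNAi, 0.785, and with WT, 0.842, exceeded the 0.705 between the depleted replicates. The HP1a RNAi libraries had bin effects like those of Su(var)3-9 RNAi, with correlations of 0.817 to 0.898 between the depletions on chr2L, 0.652 to 0.859 on chr2R and 0.473 to 0.805 on chr3R and chrX, and on chr2L their bin effects took up 54.0% and 61.5% of the variance. What remained of the scores after the bin effects were taken out was shared less well. Its correlation across bin pairs was between 0.278 and 0.379 within Su(var)3-9 RNAi on these arms, against 0.619 to 0.892 within mock RNAi. Between a depleted and a mock RNAi library it ran from 0.169 to 0.388, a range that includes the values between the depleted replicates. Bins of an arm share primers and smoothing, and these correlations are descriptions only.

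Single bins were then compared by the mean centred score over all their partners, with limma across the 405 bins that had any. Of these, 84 were higher and 78 lower in Su(var)3-9 RNAi at an adjusted p under 0.05, which is 40% of the bins (20.7% higher and 19.3% lower). This test was added after the maps had been seen, and since each score counts for both of its bins the bins are not independent. The called differences ranged in size from 0.21 to 1.66, with a median of 0.46, and lay in 49 unbroken runs of bins, of which 14 held 1 bin. By arm, 20 bins were higher and 21 lower of 104 on chr2L, 32 and 32 of 134 on chr2R, 10 and 3 of 40 on chr3R, and 22 and 22 of 127 on chrX. The count rested on the mock RNAi libraries, since 37 bins were called without the 1st and 17 without the 2nd. It was 266 and 263 without the 1st and the 2nd Su(var)3-9 RNAi library, fits in which the lone depleted library is assumed to vary as little as mock RNAi.

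**Figure D5:**
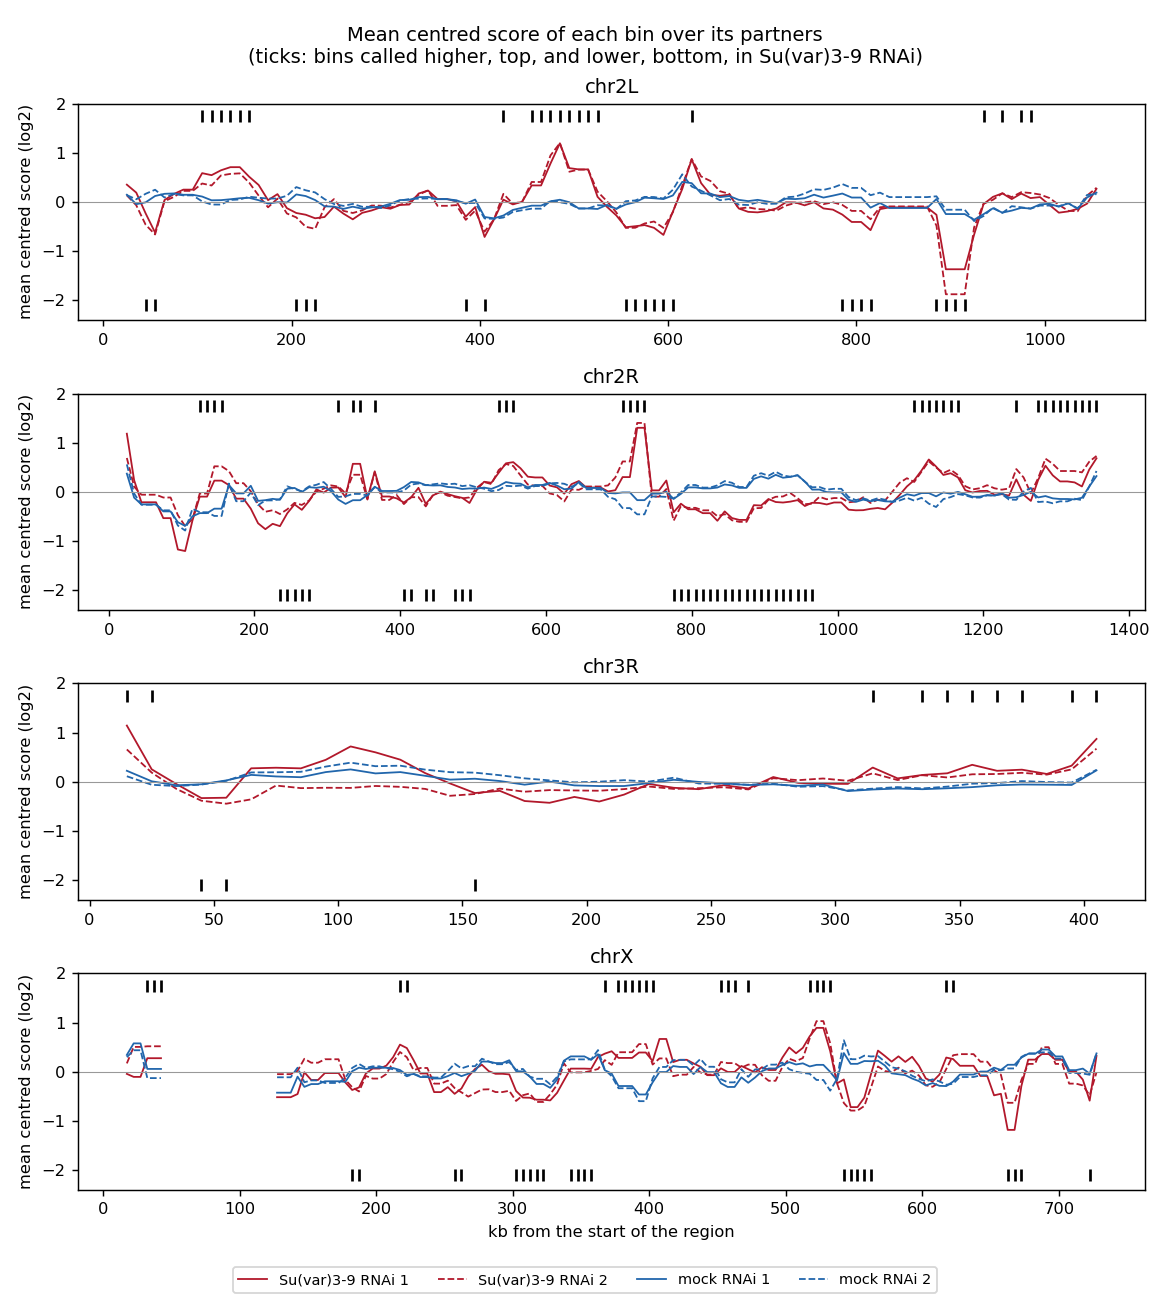
Mean centred score (log2, vertical axis) of each bin over its partners along 4 arms (horizontal axis, kb from the start of the region), for the Su(var)3-9 RNAi libraries (red) and the mock RNAi libraries (blue); ticks mark bins called higher (top) or lower (bottom) in Su(var)3-9 RNAi. The red lines follow each other over peaks and troughs, such as the trough near 900 kb on chr2L, that are shallower or missing in the blue lines.

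The bin that fell most lay on chr2L, at the light gene. This bin is 1 of 3 neighbouring bins with identical scores, chr2L:22796057-22826057, the last of which holds one end of lt. Its mean centred score was -1.37 and -1.88 in the Su(var)3-9 RNAi libraries, against -0.25 and -0.16 in the mock RNAi libraries, a difference of -1.42 ± 0.18 (SE, limma adjusted p = 0.0070). Contacts with 92 of its 98 partners were lower on group means of centred scores. The drop was -1.95 with partners under 100 kb away and -1.02 with those over 400 kb away. HP1a RNAi gave -1.56 and -1.55 here, and the WT libraries -0.49, -0.39 and -0.20.

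The bin that rose most on chr2L was chr2L:22386057-22396057, in a run of 8 bins called higher. It had 1.19 and 1.20 in Su(var)3-9 RNAi, against 0.05 and -0.01 in mock RNAi, a difference of 1.18 ± 0.057 (SE, limma adjusted p = 0.0037). On group means of centred scores all 100 of its partners were higher, near and far alike, with 1.08 under 100 kb and 1.15 over 400 kb. These scores are relative to arm medians of -0.49 and -2.47 in Su(var)3-9 RNAi and -0.90 and -0.60 in mock RNAi. The rise was not compared on deposited scores. The HP1a RNAi libraries lay between, at 0.41 and 0.52, and WT at 0.11, 0.23 and 0.16.

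On chr2R the largest rise of any bin was found at chr2R:739746-759746, a pair of bins with the same scores. They had 1.30 and 1.40 in Su(var)3-9 RNAi, against -0.17 and -0.46 in mock RNAi, a difference of 1.66 ± 0.12 (SE, limma adjusted p = 0.0037). All 129 partners were higher on group means of centred scores. The WT libraries had 0.11, 0.23 and 0.01 there, above both mock RNAi values. The bin that fell most on this arm was chr2R:869746-879746, with -0.53 and -0.58 in Su(var)3-9 RNAi and 0.13 and 0.19 in mock RNAi, a difference of -0.71 ± 0.059 (SE, limma adjusted p = 0.0056). It lies in the longest run of called bins on the 4 arms, 20 bins over chr2R:789746-989746, singled out after its values were seen. That run averaged -0.34 and -0.33 in Su(var)3-9 RNAi, against 0.15 and 0.19 in mock RNAi, with WT at 0.02, 0.00 and 0.07. The fall of the named bin was steepest with close partners, at -1.40 under 100 kb and -0.71 over 400 kb.

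On chrX the bins at chrX:22049812-22059812 had 0.39 and 0.56 in Su(var)3-9 RNAi, against -0.46 and -0.60 in mock RNAi, a difference of 1.01 ± 0.091 (SE, limma adjusted p = 0.0057). The controls did not agree among themselves at this place, since WT had -0.03, 0.00 and -0.54. The largest fall of the arm was at chrX:22319812-22329812, with -1.18 and -0.63 in Su(var)3-9 RNAi and 0.14 and 0.07 in mock RNAi, a difference of -1.01 ± 0.19 (SE, limma adjusted p = 0.017). Here HP1a RNAi, at -0.04 and -0.17, stayed near WT, at -0.09, -0.31 and -0.12.

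On chr3R the largest rise was smaller than the largest rise on chr2L, chr2R or chrX, and so was the largest fall beside theirs. The bin chr3R:16153-26153, which holds one end of beta-Man, the gene of a beta-mannosidase, had 1.14 and 0.66 in Su(var)3-9 RNAi, against 0.23 and 0.11 in mock RNAi, but only 9 partners. The difference was 0.73 ± 0.17 (SE, limma adjusted p = 0.034). The bin that fell most, chr3R:56153-66153, had -0.32 and -0.44 in Su(var)3-9 RNAi and 0.03 and 0.02 in mock RNAi, a difference of -0.41 ± 0.068 (SE, limma adjusted p = 0.014). The WT libraries had -0.19, -0.23 and -0.10 there, below both mock RNAi libraries. The fit with mock RNAi and WT as the control kept the call of each of these 8 bins. Without the 1st or the 2nd mock RNAi library 3 and 4 of the 8 were no longer called.

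Across single bin pairs the deposited scores gave no call. With limma, 0 of 22332 pairs passed an adjusted p of 0.05, a share of 0%, and 2351 had an unadjusted p under 0.05. Both depleted values lay above both mock RNAi values in 2492 pairs (11.2%) and below both in 8085 (36.2%), the direction of the arm medians. On centred scores 681 pairs passed (3.05%), 314 higher and 367 lower, and the groups did not overlap in 6768 pairs higher (30.3%) and 7315 lower (32.8%). All these calls sat at the threshold, with a smallest adjusted p of 0.0482, and 0 remained without either mock RNAi library, with a trend and robust estimation in limma, with the replicate number as a block, paired as numbered or crossed, or after bin effects were taken out. With the block as numbered, 100 pairs were called on deposited scores. Of the 681 pairs, 636 (93.4%) held at least 1 bin that was itself called in the same direction, and of all 22332 pairs 58.1% held a bin called in the direction of the pair's own difference. Bin means are made of these same scores, so the shares are not independent of the bin calls.

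Called pairs were split by distance. Under 100 kb, 121 pairs were lower and 47 higher, of 4384 tested. Over 400 kb, 79 were lower and 112 higher, of 7172. These orders came from chr2L and chr2R. On chrX 28 were lower and 29 higher under 100 kb, and 41 lower and 2 higher over 400 kb. Over the 4 arms the non-overlapping pairs were split likewise, with 41.6% lower and 22.9% higher under 100 kb, and 27.4% lower and 34.9% higher over 400 kb.

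The named pairs were picked from the centred fit for their small p and separate groups, so their values illustrate its calls and add no support. All 13 of these pairs that were called lost their call after bin effects were taken out, and also without either mock RNAi library. The other 3, on chr3R, had not been called. On chr2L the pair of chr2L:22516057-22526057 with chr2L:22796057-22806057, 280 kb apart, had centred scores of -3.61 and -3.67 in Su(var)3-9 RNAi, against -0.11 and 0.30 in mock RNAi, a difference of -3.74 ± 0.23 (SE, limma adjusted p = 0.048). Its 2nd bin is one of those next to lt. Before centring the depleted libraries had -4.10 and -6.14 and the controls -1.02 and -0.30, so the groups were apart on that scale too. The gain with the smallest p on this arm joined chr2L:21966057-21976057 and chr2L:22526057-22536057 over 560 kb, with 2.52 and 2.79 in Su(var)3-9 RNAi and 0.55 and 0.18 in mock RNAi, a difference of 2.29 ± 0.24 (SE).

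On chr2R the loss with the smallest p was of a contact between neighbours, chr2R:809746-819746 with chr2R:819746-829746, inside the run of 20 bins. It had -0.67 and -0.67 in Su(var)3-9 RNAi and 1.12 and 1.18 in mock RNAi, a difference of -1.82 ± 0.19 (SE, limma adjusted p = 0.048). The gain with the smallest p joined chr2R:1259746-1269746 and chr2R:1289746-1299746, with 1.48 and 1.47 in Su(var)3-9 RNAi and -0.65 and -0.67 in mock RNAi. A gain over 690 kb linked the rising bin chr2R:739746-749746 to chr2R:49746-59746, with 1.67 and 1.78 in Su(var)3-9 RNAi and -0.93 and -0.56 in mock RNAi. Loss of a neighbour contact also gave the only call on chr3R, chr3R:36153-46153 with chr3R:46153-56153, at -0.41 and -0.40 in Su(var)3-9 RNAi and 1.24 and 1.26 in mock RNAi.

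On chrX the named losses shared the bin chrX:22199812-22204812. With chrX:21929812-21934812, 270 kb away, it had -2.43 and -2.46 in Su(var)3-9 RNAi, against 0.20 and 0.59 in mock RNAi. With chrX:21679812-21684812, 520 kb away, it had -1.27 and -1.22 in Su(var)3-9 RNAi, against 1.41 and 1.44 in mock RNAi, a set of values held by 11 pairs. The named gains shared chrX:22179812-22184812, only 20 kb from it. With chrX:22279812-22284812, in the gene CG42346, it had 1.23 and 1.29 in Su(var)3-9 RNAi and -0.67 and -0.66 in mock RNAi.

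Heterochromatic genes were taken from a list of the study for their positions only, 24 in these regions, of which 19 lie on the 4 arms. The study gives that list as genes whose expression differed after knockdown of dMES-4, another histone methyltransferase. They are thus no neutral sample of the genes covered. Over all contacts of their bins, the groups did not overlap for 16 of the 19 genes, 10 higher (52.6%) and 6 lower (31.6%) in Su(var)3-9 RNAi. Among all 405 bins the shares were 37.3% and 42.5%. These shares are of unlike units, since a gene averages up to 15 bins. Some listed genes also share bins, such as RpL5 with CG17490, and CG42346 with CG34334 and fog, so the genes are not independent. The median difference over the 19 genes was 0.13, and that over all bins was -0.05. Of the 76 tested bins with a listed gene, 15 were called higher (19.7%) and 7 lower (9.21%), beside 20.7% and 19.3% of all bins.

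lt, whose product acts in transport to lysosomes, had the only large fall, with -1.01 and -1.19 in Su(var)3-9 RNAi and -0.30 and -0.27 in mock RNAi over 197 pairs. Of its 2 bins only 1 was called lower, the last of the 3 bins with identical scores at chr2L:22796057-22826057. RpL5, a protein of the large ribosomal subunit, had the largest rise, with 0.38 and 0.43 in Su(var)3-9 RNAi and -0.14 and -0.10 in mock RNAi, and both of its bins were called higher. Listed genes of chr2L thus went both ways. cta, a G protein subunit needed for gastrulation, had 0.12 and 0.15 in Su(var)3-9 RNAi and -0.15 and -0.10 in mock RNAi.

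On chr2R, Nipped-B, which loads cohesin, had 0.39 and 0.24 in Su(var)3-9 RNAi and 0.13 and 0.10 in mock RNAi. Nipped-A, a subunit of histone acetyltransferase complexes, had -0.07 and 0.07 in Su(var)3-9 RNAi and -0.13 and -0.16 in mock RNAi. Lower values were found for Gprk1, a kinase of G protein-coupled receptors, with -0.25 and -0.13 in Su(var)3-9 RNAi and -0.07 and -0.06 in mock RNAi, and 5 of its 15 bins were called lower and 2 higher. RpL38, conu, Atf6 and, on chr2L, Clamp were also lower in both depleted libraries, with differences between -0.18 and -0.12 and no called bin. On chrX the groups overlapped for Usp2, l(1)G0196 and fog.

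Bins were also split by the presence of a matrix attachment region (MAR), a stretch of DNA that binds the nuclear matrix, from the study's list. Scores were first set relative to the mean of their library, arm and distance. Pairs with a MAR in both bins averaged 0.16 and 0.12 in Su(var)3-9 RNAi, against 0.02 and 0.02 in mock RNAi (1404 pairs). Pairs with no MAR averaged -0.07 and -0.05 in Su(var)3-9 RNAi, against -0.01 and -0.02 in mock RNAi (12383 pairs). The gap between MAR and other pairs was wider in both depleted libraries than in both controls. The WT libraries, at 0.01, 0.05 and 0.02 for pairs with a MAR in both bins, were like mock RNAi. The difference was largest on chr2L, with 0.27 and 0.28 in Su(var)3-9 RNAi and -0.05 and -0.08 in mock RNAi, was 0.06 on chr2R, and the groups overlapped on chr3R and chrX. By single bins, 22 of the 103 bins with a MAR were called higher and 15 lower, and of the 302 without one 62 were higher and 63 lower. In either direction 35.9% of the bins with a MAR and 41.4% of those without one were called, beside 40% of all 405 bins. Bins with a MAR were thus not called more often than the others.

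Insulation was described without calling domains, by the mean centred score of pairs that span a position within 100 kb. The SD of this profile along an arm, averaged over 4 arms, was 0.37 and 0.45 in Su(var)3-9 RNAi, against 0.26 and 0.28 in mock RNAi, a difference of 0.14 (exact permutation p = 0.333). The WT libraries had 0.20, 0.22 and 0.28. The arms contributed unequally, with 0.36 and 0.40 in Su(var)3-9 RNAi against 0.25 and 0.33 in mock RNAi on chr2L, 0.45 and 0.42 against 0.34 and 0.41 on chr2R, 0.34 and 0.31 against 0.17 and 0.22 on chr3R, and 0.34 and 0.68 against 0.27 and 0.16 on chrX. On chr2L WT had 0.26, 0.25 and 0.39, so the 1st depleted library lay inside the range of the controls. HP1a RNAi had 0.38 and 0.43 there. On chr2R, chr3R and chrX both depleted libraries lay above all WT libraries. The highest of the arm values, 0.68 on chrX in the 2nd depleted library, includes 17 positions that share 1 value, 1.91. With pairs scored in all 4 libraries alone the difference was 0.093, and after bin effects were taken out it was 0.05. Over the 4 arms both depleted libraries lay above both mock RNAi libraries at 110 of 403 positions and below both at 178. The counts were 20 above and 54 below of 100 on chr2L, 48 and 50 of 130 on chr2R, 10 and 18 of 36 on chr3R, and 32 and 56 of 137 on chrX. The profile is made of the near pairs, whose median centred scores were already lower in the depleted libraries. More positions below than above therefore restate that difference and are no separate measure of insulation. The steepest fall on chr2R was at position 889746, with -0.51 and -0.69 in Su(var)3-9 RNAi and 0.77 and 0.84 in mock RNAi, and on chr2L at 22796057, with -0.25 and -0.67 against 0.80 and 0.91. The first lies in the long run of lower bins on chr2R and the other at the bin that fell most. The lowest mock RNAi dip of chr2R, at 119746, was filled in part, with -0.34 and -0.21 in Su(var)3-9 RNAi and -0.80 and -0.84 in mock RNAi. On chr2L the lowest mock RNAi dip, at 22866057, was deeper in Su(var)3-9 RNAi, with -0.54 and -0.25 against -0.17 and -0.22. The profiles of the depleted libraries correlated at 0.825 on chr2L and 0.797 on chr2R but at -0.019 on chrX, and those of mock RNAi at 0.898 or above on each of the 4 arms. On chrX the profile therefore differed between the depleted replicates themselves.

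On chr3L the 2 depleted libraries cannot be set side by side. The 2nd had a score for 1330 of 14028 pairs, and 1262 of these held 1 of the 8 neighbouring bins of chr3L:22896370-22976370. In 1300 of the 1330 the values above and below the diagonal of the matrix differed, against 0 to 2 pairs elsewhere in these 4 libraries, so the chr3L block of that map may be incomplete and its median is of uncertain meaning. Over all pairs of each library the median was -1.22 and -0.59 in Su(var)3-9 RNAi, against -0.79 and -0.81 in mock RNAi. Over the 1315 pairs with a score in all 4 it was -0.96 and -0.59 in Su(var)3-9 RNAi, against -0.79 and -0.79 in mock RNAi, so the depleted values lay on either side of the controls. In the 1st depleted library alone, over 13147 pairs, 69.6% of pairs were below both mock RNAi libraries and 20.6% above both. Its scores had an SD of 0.74, against 0.36 and 0.37 in mock RNAi, and its far minus near value was -0.20, against -0.31 and -0.42. These lie on the same side of mock RNAi as on chr2L and chr2R. Of the 5 listed genes of this arm, Mes2 had the widest gap in that library, with 0.27 against 0.04 and 0.05 in mock RNAi.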

How the data were processed

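Groups came from the labels. The members and lists were chosen with earlier results of these data known. The deposited scores are log2 values of observed over expected contacts. Per the study's methods, reads with the EcoRI site were selected and mapped to the primer pairs. Their frequencies were scaled to the total of mapped reads and then to expected frequency with HiTC. In my5C they were set against the value expected for the distance, binned and smoothed by the median. The submitters' processing notes name bcl2fastq, Bowtie2 and dm3. Both values of a bin pair were averaged where both were present. Bin pairs on 4 arms with a value in all 4 libraries, and mean centred scores of bins, were tested with limma 3.58.1 in R 4.3.3 with Benjamini-Hochberg adjustment. For 1 value per library, a two-sided exact permutation test was used. limma was tested on simulated data. Named pairs are, per arm and direction, the 2 with the smallest p of the centred fit whose groups do not overlap, the 2nd with a bin over 50 kb from the first; named bins are those with the largest rise and fall on each arm. All genes of the study's dMES-4 knockdown list with positions in these regions were used. Summaries used Python 3.11.15 with numpy 2.4.6 and pandas 2.3.3. Alternatives covered the control libraries, zeros, libraries left out, replicate block, close pairs, centring and distance limits.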

Additional observations from a re-analysis of the deposited data

How the results depend on the processing

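The score shift over the 4 arms, the far minus near contrast and the border profile spread kept their direction under each alternative run. The replicate block could not change these values, and the exact tests could not pass 0.05 in any alternative. With each library left out in turn, the shift ran from -0.48 to -0.40, the contrast from 0.21 to 0.30, the border spread from 0.10 to 0.18, the percent of positive scores from 1.23 to 3.45 points and the chr3L shift from -0.42 to 0.21. The border spread was 0.093 with pairs scored in all 4 libraries alone. The percent of positive scores changed sign with mock RNAi and WT as the control (-1.996 points) and with WT alone (-4.89 points). For single arms, with each library left out in turn, the median difference ran from -1.71 to 0.26 on chr2L, positive without the 2nd Su(var)3-9 RNAi library, and from -0.54 to 0.17 on chrX, positive without the 1st, and the far minus near difference on chrX from -0.024 to 0.28, negative without the 2nd. The bin effect share on chrX changed sign with WT alone as the control (-0.782 points).

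Calls of bin pairs depended on the setting. On deposited scores, 3739 pairs were called with mock RNAi and WT as the control, 354 with all 9 libraries in the fit, and 0 to 9943 with a library left out. On centred scores, 6526 were called with mock RNAi and WT as the control, 4488 with all 9 libraries, 1300 after quantile normalization within arms, 0 with a trend and robust estimation, 0 after bin effects were subtracted, and 0 to 9277 with a library left out. Calls of bins ran from 17 to 266 with a library left out. In the fits without a Su(var)3-9 RNAi library, the lone library is assumed to vary like the mock RNAi libraries. The cause of these changes was not tested.

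The replicate numbers are only shared numbers, with 2 of each. With the replicate block, 100 pairs were called on deposited scores, 0 on centred scores and 158 bins. The differences of the per-library values stay by construction at -0.44, 0.25, 2.34 points, 0.14 and -0.11 for chr3L, since pairing 2 with 2 cannot change them. The deviations of same-numbered libraries correlated at -0.340 on deposited scores, and with the crossed pairing as replicate block 420 pairs were called on deposited scores and 0 on centred scores. Centring sets the arm shift, on chr3L too, and the share of positive scores by construction and was not run for them, nor for the border profile, which is computed on centred scores. A mean in place of the median does not apply to positive scores. The replicate block, the crossed pairing aside, was planned, while the bin test, the WT-only control, the bin effects and the crossed pairing were added after the data were seen, as were leaving out chr2L and keeping 1 pair for each set of identical values. Depth is unknown for each score, and it limits every value above.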
